A study of Mus musculus with 18 samples.

Results

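The genes described here make the machinery that starts and extends protein chains and that loads amino acids onto transfer RNAs. They are the translation initiation factors (eIF1 to eIF6), the elongation factors eEF1 and eEF2, and the aminoacyl-tRNA synthetases of the cytosol and of mitochondria. Members were taken by gene symbol, as names that begin with Eif1 to Eif6, Eef1 or Eef2 or that end in ars, ars1 or ars2. The synthetases Eprs, Farsa and Farsb were added by name, and pseudogenes, Eif2s3x and Eif2s3y were left out. The rule gave 90 of the 8202 genes in the 3 stage tables, and no measured value entered it. Of these, 88 were among 7082 genes at E2.5, 87 among 6648 at E3.75 and 87 among 6545 at E4.5, and 84 were in all 3 tables. By role they comprise 20 cytosolic and 16 mitochondrial synthetases, 13 subunits of eIF3, 10 cap-binding and helicase factors of the eIF4 group, 5 factors of scanning and start codon choice, 5 of eIF2 and subunit joining, 5 subunits of eIF2B and 5 elongation factors. The other 11 are 4 regulators of elongation, 3 repressors of eIF4E, eIF5A and eIF6, 1 eIF2 kinase and Eif1a, which codes for eIF1A. The scanning group holds Eif1ad, whose part in scanning is not shown here, while Eif1a stands apart from it.

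The series looked in vivo for genes whose expression depends on Oct4. It set Oct4 -/- embryos, called Oct4 null here, against Oct4 +/+ embryos, called wild type, all of the CD1 strain, at the stages E2.5, E3.75 and E4.5. Embryos were flushed from the oviduct or uterus in M2 medium and sequenced whole, with 3 libraries per genotype and stage and 18 in all. The extent of the deletion in Oct4 is not stated in the labels, nor is the number of embryos in a library. RNA was copied from the poly(A) tail and amplified, so the reads lie mostly in the last stretch of each transcript. In such whole-embryo samples, fewer cells of a type and less RNA per cell cannot be told apart.

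Initiation begins when eIF2 carries the initiator tRNA to the small ribosomal subunit, eIF3 and the eIF4 factors bring that subunit to the capped mRNA, and eIF1, eIF1A and eIF5 govern the choice of start codon. eIF2B recharges eIF2 with GTP after each round, and kinases that phosphorylate eIF2 slow this step in the integrated stress response. In elongation, eEF1A delivers the charged tRNAs that the synthetases make, and eEF2 moves the ribosome along. The preimplantation embryo replaces stores laid down by the oocyte with its own transcripts, and these genes are used by every cell in it.

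Levels are given in CPM, the reads of a gene per 1000000 reads in its table. Null libraries were deeper at each stage by median, though not each library. Their median depth was 1917754 reads against 916720 in wild type at E2.5, while E3.75 had 1375610 against 576078 and E4.5 had 1314657 against 543033. Across all libraries it ran between 364936 reads, in Oct4 null library 1 of E4.5, and 1922432. Pou5f1, the gene for Oct4, held 968 CPM in null and 1875 CPM in wild type libraries, 258 CPM in null and 509 CPM in wild type libraries and 112 CPM in null and 231 CPM in wild type libraries at the 3 stages, with all null libraries below all wild type libraries each time. Reads from the end of the gene check the genotype only if the deletion reaches them, which the labels do not say. The third library of each group was nearest to a blend of its 2 companions, at 0.989 to 1.25 times the variance that read sampling alone gives, against 1.10 to 2.82 times for the others. Its independence is therefore in doubt, and counts are also given without it. At E3.75, 5 of 8 measured epiblast markers were lower and 1 higher in null embryos, of 10 primitive endoderm markers 5 were lower and 2 higher, of 12 trophectoderm markers 1 was higher, and both oocyte markers were lower. Of 5 maternal blood and tract markers 2, both globins, were higher. The summed level of the epiblast list was 945 to 985 CPM in null and 974 to 1181 CPM in wild type libraries, and that of the primitive endoderm list 1498 to 1631 and 1318 to 1480 CPM. The trophectoderm list held 6484 to 7376 CPM in null and 7234 to 8477 CPM in wild type libraries, the oocyte list 1763 to 1910 and 2321 to 2540 CPM, and the maternal list 235 to 511 and 150.4 to 231 CPM. These sums lean on few genes. Dab2 held 986 CPM in null and 629.5 CPM in wild type libraries, and Nanog 349 and 212 CPM. Krt18 held 4407 and 5135 CPM, and Khdc3 1798 and 2349 CPM. The higher primitive endoderm sum in null is mostly Dab2, while 5 markers of that list were lower. At E2.5 the epiblast list held 601 to 664 CPM in null and 685 to 729 CPM in wild type libraries. The trophectoderm list held 3381 to 3805 and 2985 to 3367 CPM, and the maternal list 1076 to 1330 and 1024 to 1437 CPM. Of 10 measured trophectoderm markers Hand1 alone passed at E2.5, higher in null by 0.96 (limma adjusted p = 0.0101). Among all genes 0.593% passed. At E4.5 the epiblast list held 666 to 695 and 907 to 1035 CPM. The primitive endoderm list held 1255 to 1433 and 1472 to 1587 CPM, and the oocyte list 997 to 1134 and 1169 to 1184 CPM. The lists left unnamed at a stage had overlapping ranges. No measured marker was at 0 in any library. The part of cell composition in the differences described here was not tested.

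The 11 members that passed the test at E3.75 are shown first by the start of their genes, because an unbroken run of C and T at the start site is the element by which the translation of many elongation factor and ribosomal protein mRNAs is controlled. The 50-base windows run 20 bases before to 30 after the annotated start, from RefSeq on GRCm38.p6, each written along its own gene. Capitals mark the longest run of C and T that touches the 10 bases on either side of the start. The 7 members higher in null embryos come first.
Eif5, chr12:111538081-111538130, plus strand: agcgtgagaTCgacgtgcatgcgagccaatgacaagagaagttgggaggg
Eif3d, chr15:77970795-77970844, minus strand: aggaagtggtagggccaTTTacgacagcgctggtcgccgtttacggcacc
Eif4a2, chr16:23107448-23107497, plus strand: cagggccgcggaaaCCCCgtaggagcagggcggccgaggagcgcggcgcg
Eif1b, chr9:120492586-120492635, plus strand: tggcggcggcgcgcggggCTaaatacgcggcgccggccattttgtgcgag
Eef2kmt, chr16:5255927-5255976, minus strand: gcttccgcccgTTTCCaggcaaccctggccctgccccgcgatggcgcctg
Qars, chr9:108507985-108508034, plus strand: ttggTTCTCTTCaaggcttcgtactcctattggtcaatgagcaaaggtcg
Wars2, chr3:99141070-99141119, plus strand: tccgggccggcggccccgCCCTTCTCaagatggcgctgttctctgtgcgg
The 4 members lower in null embryos follow.
Eef1b2, chr1:63176811-63176860, plus strand: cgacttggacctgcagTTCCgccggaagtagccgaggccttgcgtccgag
Eif3f, chr7:108934395-108934444, plus strand: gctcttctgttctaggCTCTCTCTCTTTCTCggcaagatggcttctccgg
Eef1a1, chr9:78481695-78481744, minus strand: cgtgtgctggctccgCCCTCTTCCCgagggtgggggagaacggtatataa
Eif3m, chr2:105016998-105017047, minus strand: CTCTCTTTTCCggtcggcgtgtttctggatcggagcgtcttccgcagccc

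Of the 4 lower members, Eif3f, Eef1a1 and Eif3m had runs of 15, 10 and 11 bases, and Eef1b2 had 4. Among the 7 higher members the longest runs were 8 bases, in Qars and Wars2, and the other 5 had 2 to 5. The run holds the annotated start in Eif3f, Eef1a1 and Wars2. In Eef1a1 TATA-like letters (tatataa) follow that start, so its run is not shown to be transcribed. In the members other than these, Eif3m and Qars included, the run ends before the start and lies outside the annotated transcript. A run of at least 8 bases touched the marked stretch in 17 of 79 annotated starts of 66 members (21.5%), and in 13.4% of the 6273 starts of genes in the E3.75 table. One that holds the start was present in 5 of the 79 (6.33%), and in 3.67% of the table's starts. These sequences are a description of annotated starts. The run was measured after the 11 members were known, and the libraries do not show which start the embryos used.

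At E3.75, 11 of 87 members (12.6%) passed limma with adjusted p under 0.05, 7 higher and 4 lower in null embryos. Among all 6648 genes 545 passed (8.2%), 239 higher (3.6%) and 306 lower (4.6%). The balance of higher and lower calls depended on the scaling. With TMM factors 10 members passed, 8 higher and 2 lower, where 7.49% of genes did (282 higher and 216 lower). DESeq2 size factors gave 9 members, 7 higher and 2 lower, and 7.54% of genes (282 and 219). The median log2 difference was -0.030 for the members and -0.039 for all genes, and with TMM factors 0.012 and 0.0028. Null and wild type libraries did not overlap for 29 members, where 27.2% of all genes did not overlap. Null lay above for 16 members, against 11.4% of genes, and below for 13, against 15.7%. An unadjusted p under 0.05 was reached by 23 members, against 22.8% of all genes. The median and the share with an unadjusted p under 0.05 lay near those of the whole table. None of the 11 passing members had overlapping groups. Differences below are null minus wild type in log2(CPM + 1), each with its SE and limma adjusted p.

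**Figure D1:**
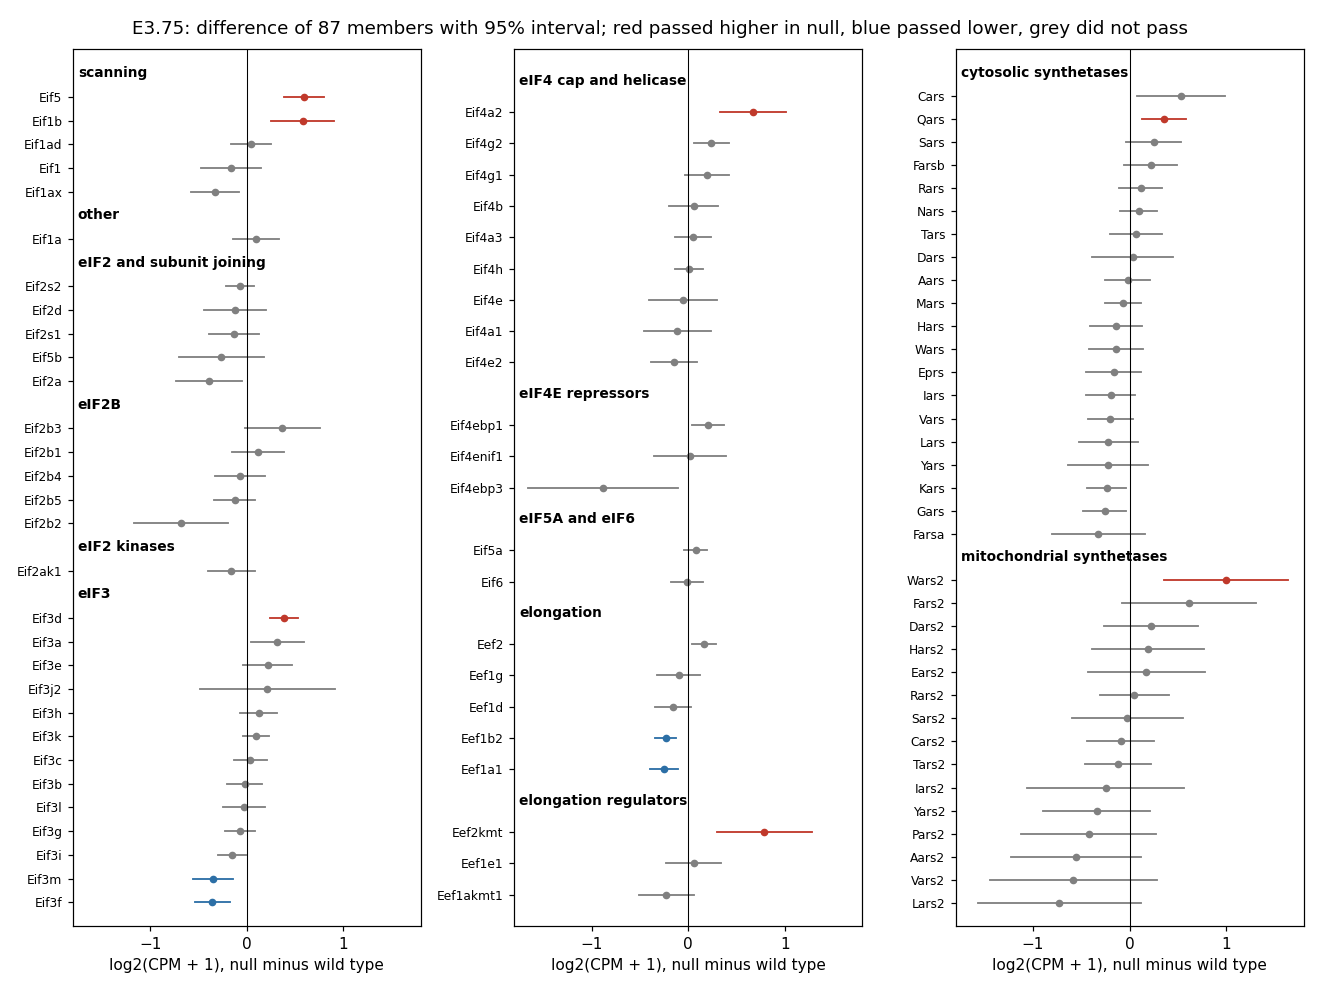
Difference between Oct4 null and wild type embryos at E3.75 for each of the 87 members, on the log2(CPM + 1) scale, grouped by role, with the 95% interval of limma as a line. Red marks the 7 members that passed higher in null, blue the 4 that passed lower and grey those that did not pass. Most intervals cross 0, and within each role that holds a passing member the others scatter to both sides.

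The count at E3.75 depended on single libraries. Without Oct4 null library 1, 2 or 3 it was 3, 6 and 5 (3.45%, 6.9% and 5.75% of members), where 3.32%, 6.6% and 4.32% of all genes passed. Without wild type library 1, 2 or 3 it was 9, 11 and 3 (10.3%, 12.6% and 3.45%), where 7.18%, 9.81% and 3.14% of all genes passed. The members' share thus moved with that of the whole table. DESeq2 called 6 of the 67 members to which it gave an adjusted p (8.96%), against 10.5% of genes, and edgeR's quasi-likelihood test called 12 (13.8%), against 8.3%. With thinned reads 7 members passed (8.05%), against 5.28% of genes, and in the fit over all 18 libraries 4 of 84 (4.76%), against 3.92%. Without the third library of both groups 2 members passed, Eif5 and Eif3d, where 2.33% of all genes did. These 2 passed under each of the 17 alternatives run, with log2 differences of 0.53 to 0.68 for Eif5 and 0.34 to 0.44 for Eif3d.

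Eif5 (ENSMUSG00000021282) codes for the factor that makes eIF2 hydrolyse its GTP when the start codon is found. It had 467, 505 and 506 CPM in Oct4 null libraries, against 299, 368 and 316 CPM in wild type libraries at E3.75. All null libraries lay above the highest wild type library. Null exceeded wild type by a log2 difference of 0.59 (SE 0.10, adjusted p = 0.000738). Eif1b (ENSMUSG00000006941), a close relative of the start-codon gatekeeper Eif1, had 156, 109 and 123 CPM in Oct4 null libraries, against 84.6, 83.2 and 88.5 CPM in wild type libraries. The wild type values were tight, and null library 1 was the highest of the 6. Its log2 difference was 0.58 (SE 0.16, adjusted p = 0.0238), and the call was lost without null library 1 (0.44, adjusted p = 0.175), null library 3 (0.61, 0.0745) or wild type library 3 (0.60, 0.0634). Of the 5 genes grouped under scanning, Eif1ad among them, 2 rose, none fell, and the other 3 had log2 differences of -0.33 to 0.04. Eif1a had 199.6 ± 10.9 CPM in null and 187 ± 4.81 CPM in wild type libraries (SD, n = 3 each), and its difference of 0.095 (SE 0.12, adjusted p = 0.68) did not pass.

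The eIF3 complex, the largest initiation factor and a scaffold on the small subunit, had 3 of 13 measured subunits past the threshold at E3.75, 1 higher and 2 lower. Eif3d (ENSMUSG00000016554), whose human protein can itself bind the cap of some mRNAs, had 2251, 2012 and 2084 CPM in Oct4 null libraries, against 1534, 1737 and 1583 CPM in wild type libraries. The lowest null library lay above the highest wild type library, and the log2 difference was 0.39 (SE 0.069, adjusted p = 0.00118), a mean ratio of 1.31. Eif3f (ENSMUSG00000031029), a subunit with an MPN domain, went the other way, with 430, 452 and 484 CPM in Oct4 null libraries, against 575, 593 and 583 CPM in wild type libraries. Its 3 wild type values lay close together and above every null value. Its log2 difference of -0.36 (SE 0.088, adjusted p = 0.0132) passed, but it did not pass without null library 1 (-0.32, adjusted p = 0.0746) or wild type library 3 (-0.36, 0.0648). Eif3m (ENSMUSG00000027170), a subunit with a PCI domain, had 298, 299.5 and 317 CPM in Oct4 null libraries, against 363, 391 and 415 CPM in wild type libraries. Groups did not overlap, and the log2 difference was -0.35 (SE 0.10, adjusted p = 0.0321). It was lost on leaving out any of 5 libraries (adjusted p = 0.0509 to 0.161), all but wild type library 1. It was lost too with TMM factors (-0.31, adjusted p = 0.06), and 61.6% of the sequence words in the last 1000 bases of its transcript also occur in transcripts of other genes, so its reads may be shared. The other 10 subunits had log2 differences of -0.15 to 0.32 and did not pass, with 6 above and 4 below 0. Summed over the 13 subunits, eIF3 held 9695 to 9984 CPM in null libraries and 9154 to 9777 CPM in wild type libraries at E3.75. These ranges overlap.

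**Figure D2:**
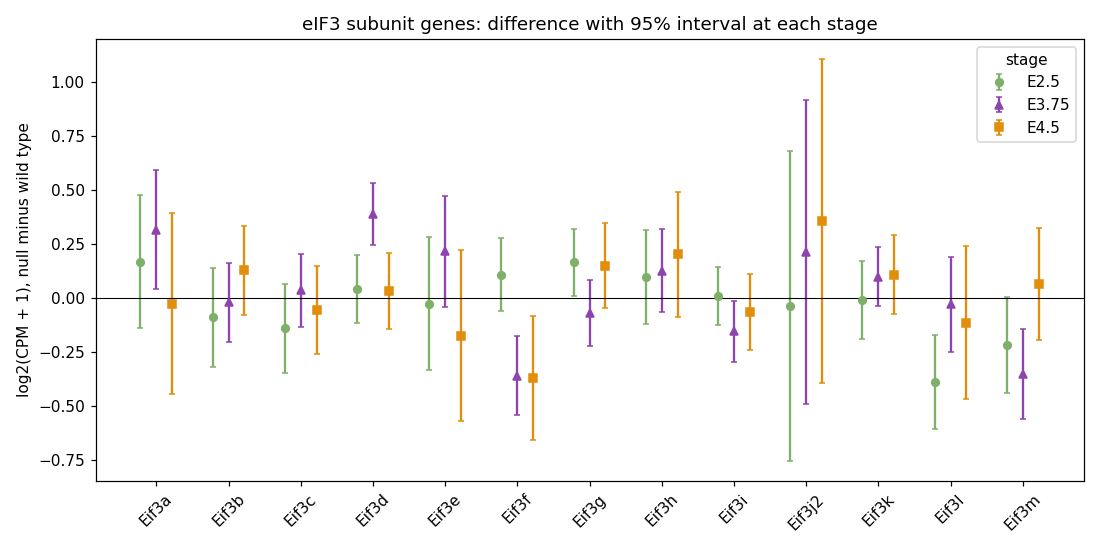
Difference between Oct4 null and wild type embryos for each of the 13 eIF3 subunit genes at E2.5 (green circles), E3.75 (purple triangles) and E4.5 (orange squares), on the log2(CPM + 1) scale with 95% intervals. Eif3d stands above 0 at E3.75 (0.39) and near 0 at the other stages (0.04 and 0.03), while Eif3f is below 0 at E3.75 (-0.36) and E4.5 (-0.37).

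Of the genes grouped as cap-binding and helicase factors of eIF4, 1 of 9 rose at E3.75 and none fell. The group holds Eif4a3 and Eif4e2, whose part in initiation is not shown here. Eif4a2 (ENSMUSG00000022884), a paralogue of the helicase Eif4a1, had 120.2, 124 and 116 CPM in Oct4 null libraries, against 82.7, 87.5 and 59 CPM in wild type libraries. The null values lay close together, and wild type library 3 was the lowest of all. The log2 difference was 0.67 (SE 0.17, adjusted p = 0.0135), and it did not pass without that library (0.49, adjusted p = 0.10) or without null library 1 (0.67, 0.0579). Of the words in the last 1000 bases of Eif4a2, 27.6% occur in transcripts of other genes. Eif4g2, an eIF4G relative that lacks the eIF4E-binding part, had 798, 665 and 740.1 CPM in Oct4 null libraries, against 673, 596 and 594 CPM in wild type libraries. Null library 2 lay just below wild type library 1, so the groups overlapped, and the difference of 0.24 (SE 0.089, adjusted p = 0.102) did not pass. It passed without wild type library 1 (adjusted p = 0.0383) and in edgeR's quasi-likelihood test (adjusted p = 0.0352). Eif4h, a helper of the helicase, had 1272 CPM in null and 1267 CPM in wild type libraries, a difference of 0.0086 (SE 0.072, adjusted p = 0.959).

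None of the 3 eIF4E repressors passed at E3.75. Eif4ebp1, which blocks the cap-binding protein until it is phosphorylated through mTORC1, had 839, 896 and 852 CPM in Oct4 null libraries, against 728, 805 and 717 CPM in wild type libraries. All null values lay above the wild type values, with a difference of 0.20 (SE 0.08, adjusted p = 0.124). At E4.5 the order was the same, with 685, 834 and 795 CPM in Oct4 null libraries, against 587, 661 and 646 CPM in wild type libraries and a difference of 0.28 (SE 0.10, adjusted p = 0.236). At E2.5 the groups overlapped, at a difference of -0.019. Of the last 1000 bases of its transcript 21.6% are shared with other transcripts. Eif4ebp3, of the same family, of whose shorter transcript 66.2% is shared with another, had 15.7 CPM in null and 29.4 CPM in wild type libraries at E2.5 and 12.4 CPM in null and 21.9 CPM in wild type libraries at E3.75, with all null libraries below all wild type libraries at both stages. Its differences there were -0.87 (SE 0.27, adjusted p = 0.117) and -0.88 (SE 0.38, adjusted p = 0.156), and neither passed. At E4.5 it had 49.3, 9.89 and 17.1 CPM in Oct4 null libraries, against 18.4, 15.5 and 13.8 CPM in wild type libraries, so that the groups overlapped, null library 1 was the highest and the difference was 0.36 (SE 0.49, adjusted p = 0.747).

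The elongation factors gave 2 lower members of 5 at E3.75 and none higher. Eef1b2 (ENSMUSG00000025967), the exchange factor that reloads eEF1A with GTP, had 4946, 4817 and 5240 CPM in Oct4 null libraries, against 5867, 5739 and 6048 CPM in wild type libraries. The highest null library was below the lowest wild type library. Null was lower, with a log2 difference of -0.24 (SE 0.052, adjusted p = 0.00683), a mean ratio of 0.85, a call that was lost only without wild type library 3 among the single libraries (-0.22, adjusted p = 0.0718). Eef1a1 (ENSMUSG00000037742), which carries charged tRNAs to the ribosome, had 1688, 1619 and 1603 CPM in Oct4 null libraries, against 2132, 1934 and 1802 CPM in wild type libraries. Null values were tight, and wild type library 1 was the highest. The log2 difference was -0.25 (SE 0.07, adjusted p = 0.0257), and it did not pass with TMM factors (-0.21, adjusted p = 0.076), in edgeR's quasi-likelihood test (adjusted p = 0.0669) or without any 1 of null libraries 1, 2 and 3 or wild type library 1 (adjusted p = 0.0557 to 0.113). Of the words in the last 1000 bases of Eef1a1, 63.0% occur in transcripts of 28 other genes, so its reads may be shared. How reads that match several genes were counted is not given. Eef2, the translocase, named here after its values were seen, had 2578, 2627 and 2418 CPM in Oct4 null libraries, against 2283, 2238 and 2271 CPM in wild type libraries. All null values lay above the wild type values, and the difference of 0.17 (SE 0.061, adjusted p = 0.0958) did not pass. It passed as higher in null with TMM factors (0.21, adjusted p = 0.0478) and in edgeR's quasi-likelihood test (0.21, 0.0484), and its adjusted p was 0.0478 to 0.407 over all alternatives. With TMM factors the class thus had 1 lower and 1 higher member.

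Summed elongation factor levels at E3.75 were 9847 to 10013 CPM in null libraries and 10732 to 11095 CPM in wild type libraries, and did not overlap. The sum includes Eef1b2 and Eef1a1 and carries no test. At E2.5 the sums were 10239 to 10543 CPM in null and 10434 to 10549 CPM in wild type libraries, and at E4.5 they were 9780 to 11085 and 9742 to 10654 CPM. Of the regulators of elongation, 1 of 3 measured rose at E3.75. Eef2kmt (ENSMUSG00000022544), the enzyme that methylates a lysine of eEF2, had 63.6, 45.1 and 44.5 CPM in Oct4 null libraries, against 24.4, 37.4 and 26 CPM in wild type libraries. Null library 1 was the highest, and the lowest null value lay above the highest wild type value. The log2 difference was 0.79 (SE 0.24, adjusted p = 0.0424), and it was lost on leaving out any 1 library except wild type library 2 (adjusted p = 0.0613 to 0.228). Words shared with Alg1 and other genes make up 46.2% of its last 1000 bases. Eef1akmt1, a methyltransferase for eEF1A, had 108 CPM in null and 127 CPM in wild type libraries, and Eef1e1, a scaffold of the synthetase complex, had 180 CPM in null and 174 CPM in wild type libraries. Their differences were -0.23 (SE 0.14, adjusted p = 0.347) and 0.056 (SE 0.14, adjusted p = 0.853).

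**Figure D3:**
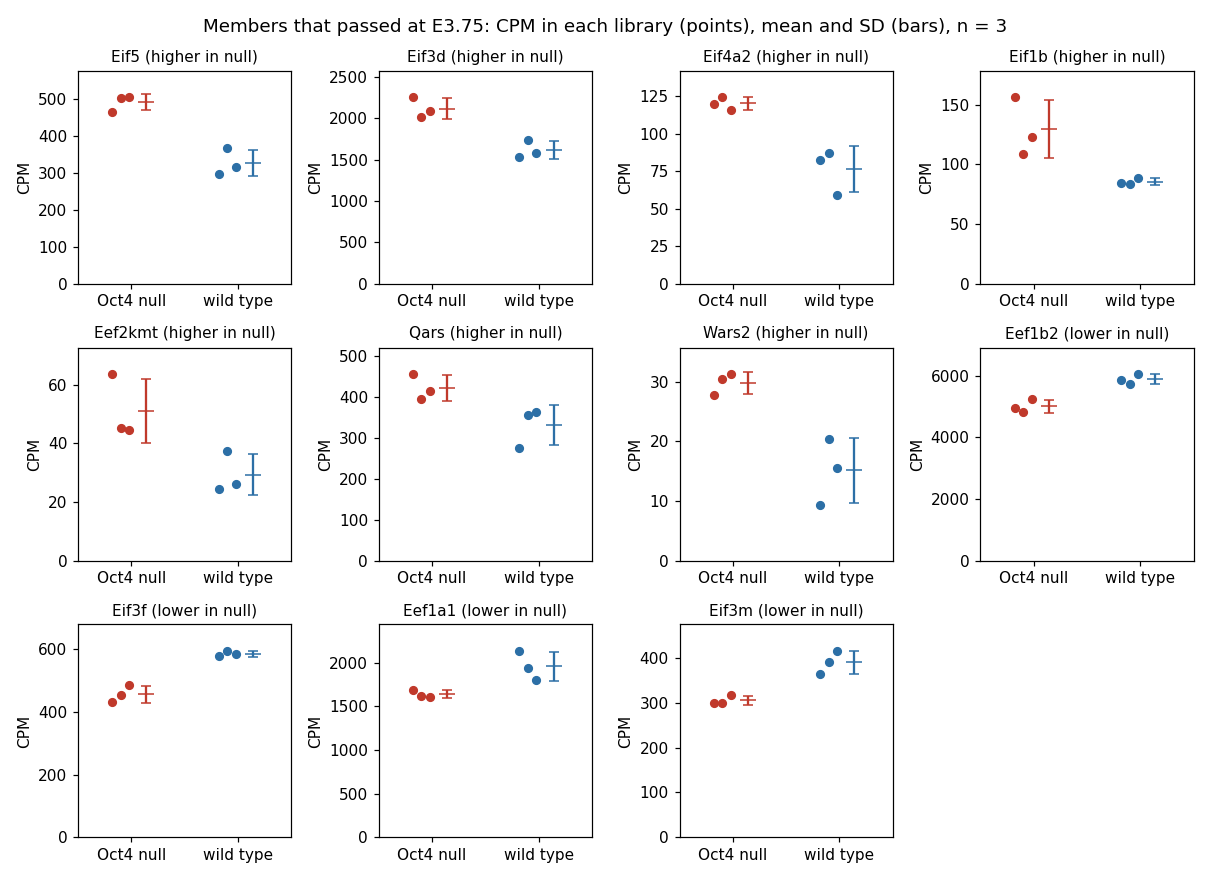
CPM in each library at E3.75 for the 11 members that passed, null libraries in red on the left and wild type libraries in blue on the right, with the mean and SD beside the points. In each panel all 3 points of one genotype lie above all 3 points of the other, with null above in 7 panels and below in 4.

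Among the 20 cytosolic synthetases 1 rose and none fell at E3.75. Qars (ENSMUSG00000032604), which charges glutamine tRNA, had 456, 396 and 415 CPM in Oct4 null libraries, against 275, 356 and 363 CPM in wild type libraries. The lowest null library lay above the highest wild type library, and wild type library 1 was the lowest. A log2 difference of 0.36 (SE 0.11, adjusted p = 0.0477) resulted, and the call was lost on leaving out any 1 library except wild type library 2 (adjusted p = 0.0522 to 0.211). Kars, the lysine enzyme, had 319, 319.9 and 331 CPM in Oct4 null libraries, against 369, 408 and 369.7 CPM in wild type libraries. Its groups did not overlap either, and the difference of -0.24 (SE 0.10, adjusted p = 0.139) did not pass. Nars, the asparagine enzyme, had 673 ± 68.3 CPM in null and 629.7 ± 43.2 CPM in wild type libraries (SD, n = 3 each), and its difference of 0.093 (SE 0.091, adjusted p = 0.594) did not pass.

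Several of these enzymes are known targets of the stress factor ATF4, and several form one complex with scaffold proteins. Of the 13 measured members on an ATF4-linked list none passed at any stage, with median log2 differences of -0.13, -0.14 and 0.02 in stage order. For all genes the medians were -0.015, -0.039 and 0.06. Among all genes 0.593%, 8.2% and 0.0% passed, so a count of 0 among 13 does not set the list apart. At E2.5 all null libraries lay below all wild type libraries for 5 of the 13, Iars, Aars, Wars, Nars and Vars. Null lay above for 0 of them. The shares of all genes were 14.1% below and 13.6% above. Of the words in the last 1000 bases of Aars, 100% also occur in Exosc6, so its reads may be shared. For Iars 19.0% occur in transcripts of other genes, and for Wars, Nars and Vars 0%. At E3.75 null lay above for 2 and below for 0, and at E4.5 above for 0 and below for 1. Of the 11 measured genes of the complex, Qars was the only one that passed, at E3.75. Their median there was -0.072. The summed level of the cytosolic synthetases was 4388 to 4741 CPM in null libraries and 4514 to 4808 CPM in wild type libraries at E3.75, and the ranges overlapped at the other stages as well.

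Of the mitochondrial synthetases 1 of 15 measured rose at E3.75 and none fell. Wars2 (ENSMUSG00000004233), which charges tryptophan tRNA in mitochondria, had 27.8, 30.5 and 31.3 CPM in Oct4 null libraries, against 9.4, 20.4 and 15.6 CPM in wild type libraries. The null values lay close together, while wild type library 1 was well below wild type libraries 2 and 3. The log2 difference was 1.00 (SE 0.31, adjusted p = 0.0484), a mean ratio of 1.97, and it was lost on leaving out any 1 library except wild type library 2 (adjusted p = 0.0882 to 0.186). Fars2, the phenylalanine enzyme, had 22 CPM in null and 14.1 CPM in wild type libraries and a difference of 0.61 (SE 0.34, adjusted p = 0.286) that did not pass. Rars2, the arginine enzyme, had 96 ± 11 CPM in null and 94 ± 20.6 CPM in wild type libraries (SD, n = 3 each). The remaining 12 members had log2 differences of -0.73 to 0.22.

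Of the 5 eIF2 and subunit-joining members none passed at E3.75, and all 5 differences were below 0, with a median of -0.14. Eif2a, a factor that can bring initiator tRNA without eIF2, had 61.3, 82.2 and 75.8 CPM in Oct4 null libraries, against 90.3, 99.3 and 97.2 CPM in wild type libraries. Null values lay below wild type values, and the difference of -0.39 (SE 0.16, adjusted p = 0.15) did not pass. It passed with reads thinned to equal depth (adjusted p = 0.0493). At E2.5 it was also lower in all null libraries, with a difference of -0.48 (SE 0.15, adjusted p = 0.117). Eif2s2, the beta subunit of eIF2, had 1158 ± 35.5 CPM in null and 1217 ± 44.2 CPM in wild type libraries, and Eif5b, which joins the ribosomal subunits, had 41.5 ± 2.99 CPM in null and 50.6 ± 10.5 CPM in wild type libraries (SD, n = 3 each). The summed levels of the group were 1461 to 1573 CPM in null libraries, below the 1621 to 1668 CPM of wild type libraries.

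The exchange factor eIF2B gave no passing subunit of 5 at any single stage, but its beta subunit gave the only member that passed a test of the genotype difference between stages. Eif2b2 (ENSMUSG00000004788) had 120.4, 120.2 and 111 CPM in Oct4 null libraries, against 64.4, 65.7 and 94.8 CPM in wild type libraries at E2.5, so that null lay above. At E3.75 it had 23.1, 36.4 and 27.8 CPM in Oct4 null libraries, against 50.8, 39 and 50.3 CPM in wild type libraries, so that null lay below. The differences were 0.66 (SE 0.18, adjusted p = 0.0859) and -0.68 (SE 0.24, adjusted p = 0.0792). The E3.75 difference minus the E2.5 difference was -1.34 (SE 0.33, limma over 18 libraries, adjusted p = 0.0484), where 1.12% of 5430 genes passed. It was lost without any 1 of 9 of the 12 libraries involved (adjusted p = 0.0593 to 0.142) and without the third libraries (-1.48, adjusted p = 0.875), and it kept its sign in each. At E4.5 the groups overlapped, with 43.8, 60.1 and 50.6 CPM in Oct4 null libraries, against 35, 40.7 and 62.5 CPM in wild type libraries. Eif2b5, the catalytic subunit, had 299 CPM in null and 327 CPM in wild type libraries at E3.75, and Eif2b3 had 61.6 CPM in null and 47.4 CPM in wild type libraries, with differences of -0.13 and 0.37 that did not pass. Eif2ak1, the heme-regulated eIF2 kinase and the only such kinase analysed here, was at 201 CPM in null and 224 CPM in wild type libraries, a difference of -0.16 (SE 0.12, adjusted p = 0.442).

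**Figure D4:**
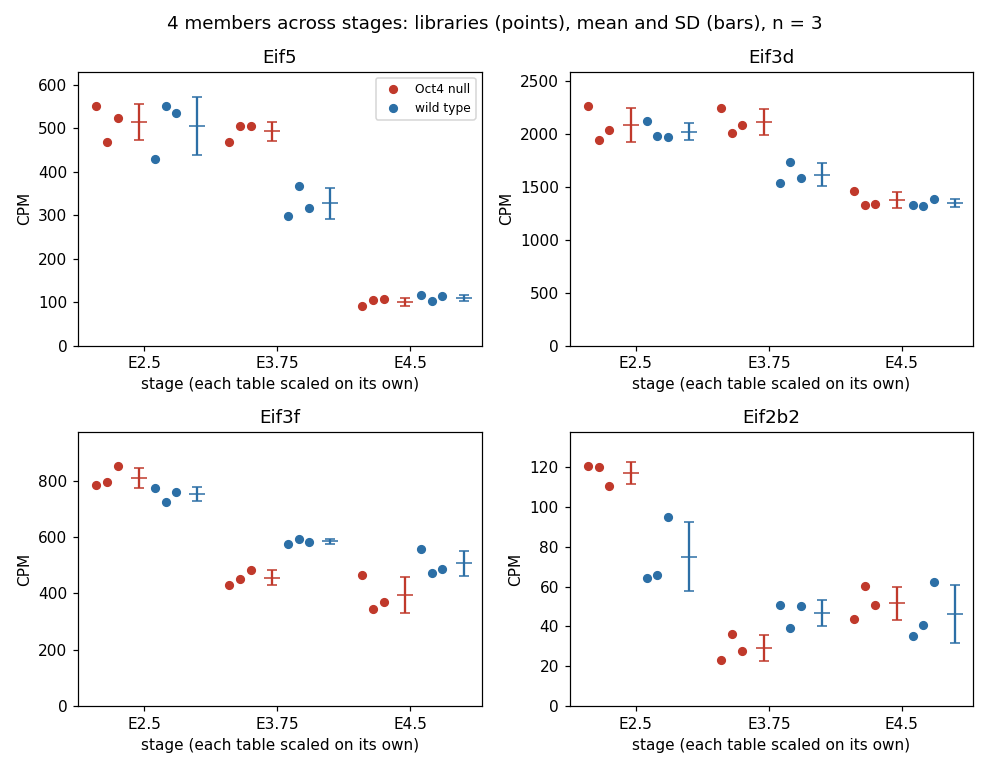
CPM of Eif5, Eif3d, Eif3f and Eif2b2 in each library at the 3 stages, null in red on the left and wild type in blue on the right of each stage, with mean and SD. Eif5 and Eif3d separate by genotype at E3.75, Eif3f at all 3 stages but with null above at E2.5 and below later, and Eif2b2 changes order between E2.5 and E3.75. Each stage was scaled on its own.

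At E2.5 none of 88 members passed, where 0.593% of 7082 genes did (42 genes, 29 or 0.409% higher and 13 or 0.184% lower). An unadjusted p under 0.05 was reached by 14 members, against 20.4% of all genes, edgeR's quasi-likelihood test also called none (2.53% of genes), and DESeq2 called 3 (4.49% of genes). Groups did not overlap for 25 members, where 27.8% of all genes did not overlap. Null lay above for 11, against 13.6% of genes, and below for 14, against 14.1%. Beside Eif2b2, the smallest p-values were those of Eif1ad, with 184, 201 and 203 CPM in null against 241, 312 and 276 CPM in wild type libraries, and Eif3l, with 407, 412 and 438 CPM against 613, 492 and 546 CPM. Both were chosen after their values were seen. Their differences were -0.49 (SE 0.12, adjusted p = 0.0769) and -0.39 (SE 0.10, adjusted p = 0.0802), so neither passed, although null lay below in each library. DESeq2 called both, together with Eif2b2. Leaving out wild type library 2 gave 9 calls among the members and 10.9% of all genes, leaving out wild type library 1 gave 3 (3.41% of members) and 5.51% of all genes, and the other 4 libraries gave 0. Eif6, which keeps the large subunit from joining too early, had 950.1, 1001 and 1008 CPM in Oct4 null libraries, against 1176, 1291 and 1059 CPM in wild type libraries, with null below in each library and a difference of -0.25 (SE 0.084, adjusted p = 0.136). At E3.75 the same gene had 698 CPM in null and 704 CPM in wild type libraries, a difference of -0.012 (SE 0.079, adjusted p = 0.948).

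At E4.5 none of 87 members passed and none of the 6545 genes did (0.0%). An unadjusted p under 0.05 was reached by 5 members and 15.0% of all genes. edgeR's quasi-likelihood test and DESeq2 called none of the members. edgeR called 42 genes of the whole table (0.642%), and DESeq2 called 112 (4.29%) of the 2611 to which it gave an adjusted p. Groups did not overlap for 11 members, where 22.2% of all genes did not. Null lay above for 7, against 12.2% of genes, and below for 4, against 9.99%. Eif5a, which helps the ribosome past difficult stretches such as runs of proline, had 2521, 2779 and 2667 CPM in Oct4 null libraries, against 1996, 2445 and 2260 CPM in wild type libraries. Null lay above in each library, with a difference of 0.25 (SE 0.086, adjusted p = 0.213). At E3.75 its null libraries also lay above, by 0.079 (SE 0.057, adjusted p = 0.436). Eif3f was again below in each null library, with 466, 345 and 369 CPM in Oct4 null libraries, against 558, 473 and 486 CPM in wild type libraries and a difference of -0.37 (SE 0.13, adjusted p = 0.222). It passed without Oct4 null library 1, the shallowest library (adjusted p = 0.0452), where 1.83% of all genes passed, and in the fit over all 18 libraries (adjusted p = 0.0369), where 4.07% did. Over all alternatives its adjusted p was 0.0369 to 0.833. Null library 1 also held 1085 CPM of the 3 measured maternal markers, against 147.6 and 360 CPM in the other null libraries and 149 to 268 CPM in wild type libraries. Their part in the result was not tested.

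Stage levels were not compared by test, because each table was scaled on its own, but the shifts are wide for some members. Eif5 was at 514 CPM in null and 505 CPM in wild type libraries at E2.5, 492 CPM in null and 328 CPM in wild type libraries at E3.75 and 101 CPM in null and 111 CPM in wild type libraries at E4.5. Its genotype difference at E4.5 minus that at E3.75 was -0.73 (SE 0.17, limma, adjusted p = 0.0689), and 0.0921% of 5430 genes passed that comparison. It passed with TMM factors (adjusted p = 0.036), with DESeq2 size factors (0.0423), without wild type library 2 of E3.75 (0.0428) and without wild type library B of E4.5 (0.0429). Eif3d was at 2085 CPM in null and 2024 CPM in wild type libraries at E2.5 and 1378 CPM in null and 1347 CPM in wild type libraries at E4.5. For Eif3d the differences between stages were 0.35 (E3.75 minus E2.5, adjusted p = 0.121) and -0.35 (E4.5 minus E3.75, adjusted p = 0.137), so the higher null level at E3.75 is not shown to be particular to that stage. No member passed for E4.5 minus E2.5, where 1.01% of genes did.

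Summed over all roles, the members held 36841 to 37657 CPM in null and 37526 to 37707 CPM in wild type libraries at E3.75. At E2.5 they held 39874 to 40167 CPM in null and 39745 to 40890 CPM in wild type libraries. At E4.5 the ranges were 31926 to 34473 and 31503 to 33109 CPM. At each stage the ranges of both genotypes overlapped. Sums of single roles carry no test, use the CPM without other scaling, and were not set beside sums of other genes. For single genes the groups did not overlap for 27.8%, 27.2% and 22.2% of all genes in stage order. A sum without overlap therefore does not set a role apart. Beside those given above, these role sums did not overlap, leaving aside the mitochondrial synthetases at E4.5, whose gap was worth less than 1 read. The genes grouped under scanning, Eif1ad among them, held 1273 to 1324 CPM in null and 1068 to 1190 CPM in wild type libraries at E3.75. This sum includes Eif5 and Eif1b, which passed. Its mean was 1295 CPM in null and 1139 CPM in wild type libraries, a difference no larger than that of Eif5 alone. The eIF2 and subunit-joining factors held 1324 to 1408 CPM in null and 1417 to 1583 CPM in wild type libraries at E2.5. The regulators of elongation held 373 to 408 and 410.1 to 434.5 CPM at that stage, a narrow gap. Their sum averaged 395 CPM in null and 425.5 CPM in wild type libraries. Eef1e1, a scaffold of the synthetase complex, averaged 160 and 190 CPM, so the difference in that sum is mostly Eef1e1. eIF5A and eIF6 summed to 3574 to 3722 CPM in null and 3470 to 3530 CPM in wild type libraries at E3.75, and to 2850 to 3203 and 2412 to 2837 CPM at E4.5. The eIF4E repressors summed to 923 to 978 CPM in null and 795 to 893 CPM in wild type libraries at E3.75, and to 847 to 917 and 680 to 778 CPM at E4.5. Their sum is mostly Eif4ebp1, with 863 of a mean of 944 CPM in null libraries at E3.75, where Eif4ebp3 was lower in every null library.

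**Figure D5:**
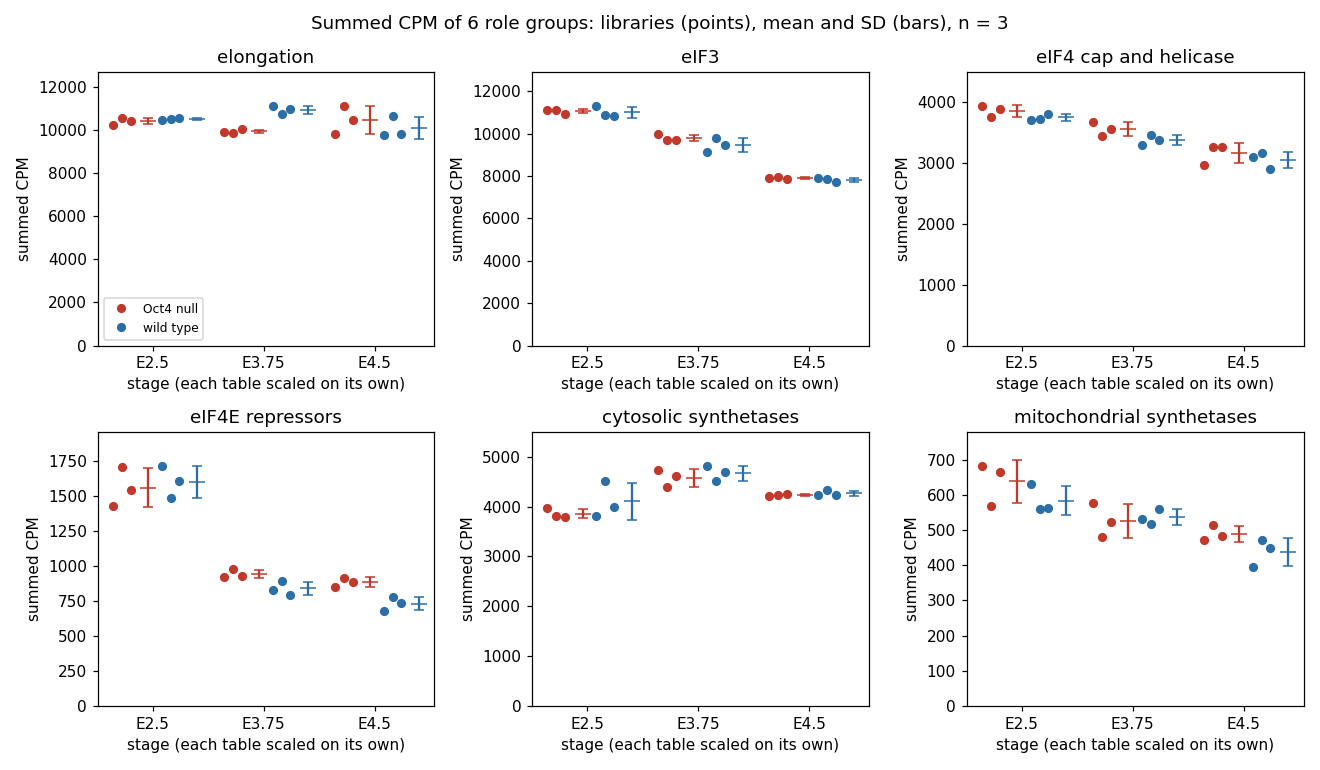
Summed CPM of 6 role groups in each library at the 3 stages, null in red on the left and wild type in blue on the right of each stage, with mean and SD. Elongation factors at E3.75 lie lower in null than in wild type libraries, and the eIF4E repressor sum, which is mostly Eif4ebp1, lies higher in null libraries at E3.75 and E4.5, while the cytosolic synthetase sums overlap at each stage.

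Promoters of the members were searched on both strands in the 300 bases around annotated starts for 3 motifs. The CARE element TGATGNAA, bound by ATF4, was found in 5 of 79 windows (6.33%), against 1.91% of windows of genes in the E3.75 table and 3.97% of all 32851 windows. The E-box CACGTG, bound by MYC and related factors, was found in 17 of 79 windows (21.5%), against 11.4% and 7.15%. Among the 11 passing members it was in the windows of Eif1b and Eif3f. The octamer ATGCAAAT, the site that Oct4 and related factors bind, was in none of the 79 windows, against 1.1% and 1.74%. These matches are letters in a window and say nothing of binding in the embryo.

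Of 5 lists of other genes of the translation pathway, 2 held genes that passed at E3.75, where 3.6% of all genes passed higher and 4.6% lower. Of 5 termination and recycling factors 2 rose at E3.75 and none fell. Etf1, the release factor, had 706, 689.9 and 699 CPM in Oct4 null libraries, against 496, 569 and 517 CPM in wild type libraries, a difference of 0.41 (SE 0.086, adjusted p = 0.00462). Pelo, which rescues stalled ribosomes, had 134, 134 and 132 CPM in Oct4 null libraries, against 97.8, 104 and 83.3 CPM in wild type libraries, a difference of 0.49 (SE 0.14, adjusted p = 0.0386). Both genes had null libraries above wild type libraries throughout. Of 15 measured genes of the integrated stress response 1 rose and 2 fell. Psat1, an enzyme of serine synthesis, had 1966 CPM in null and 1240 CPM in wild type libraries, a difference of 0.67 (SE 0.071, adjusted p = 4.16e-06). Nupr1, a stress-induced nuclear protein, and Shmt2, a mitochondrial enzyme of one-carbon metabolism, were lower, with differences of -0.91 (SE 0.24, adjusted p = 0.0224) and -0.96 (SE 0.30, adjusted p = 0.048) on the log2 scale. None of 7 mTORC1 genes, 12 regulators of the cap and poly(A) tail and 6 mitochondrial translation factors passed at E3.75, and none of the genes on these 5 lists passed at E2.5 or E4.5.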

How the data were processed

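Levels of each stage were deposited by the authors as a table of CPM whose columns sum to 1000000. The submitters' processing notes list edgeR and mm9. What aligner, counter and annotation were used is not given in the sources used here. Every row reaches at least 10.3, 10.4 and 10.4 CPM in 3 of the 6 libraries of its table, which marks a filter applied before deposit, so a gene without a row is not analysed here. The 3 wild type columns of E4.5 are named alike in the deposited table and are called A, B and C. Gene symbols come from the reference table by identifier (6968 of 7082, 6546 of 6648 and 6443 of 6545 genes matched).

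Dividing the deposited CPM by the worth of 1 read gave whole counts for 121650 of 121650 values (100%, within 0.01 reads), which give the depth. The files hold CPM, so limma 3.58.1 (R 4.3.3) was fitted per stage to log2(CPM + 1) with a variance trend, two-sided, adjusted by Benjamini-Hochberg over all genes of the table, at a threshold of 0.05. For low genes this scale understates a fold change. Differences between stages were fitted over all 18 libraries and 5430 shared genes. edgeR 4.0.16 and DESeq2 1.42.0 on the recovered counts, scaling by TMM or by DESeq2 size factors, a pseudocount of 0.1 or 5, a CPM minimum of 10, thinned reads, a replicate block and leaving out libraries were alternatives. The fits were tested on simulated data. P-values measure the spread between libraries, which may be technical, and amplified reads without stated molecular identifiers are not independent molecules.

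The members and lists were chosen with earlier results of these data known. Named genes are the members that passed, then per role the 2 with the smallest p and the 1 with the highest mean at E3.75. Shared sequence was counted as words of 36 bases in the last 1000 bases of a transcript, found for 88 members. Where not given above, it was 17.6% for Eef1b2, 17.3% for Eef2, 11.7% for Eif3d and 5.8% for Wars2. For Eif5, Eif1b, Eif3f and Qars it was 0%. Promoters were matched by symbol for 66 of 90 members.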

Additional observations from a re-analysis of the deposited data

Results flagged for a closer look

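In Eif2b2, Eif3f and Sars2 all null libraries lay above all wild type libraries at one stage and below them at another. How many of all genes changed order in this way was not counted, so the change does not set these members apart. In stage order, null lay above for 13.6%, 11.4% and 12.2% of all genes and below for 14.1%, 15.7% and 9.99%. Other members, such as Farsa and Eif4ebp3, had differences of both signs with groups that overlapped at a stage. Eif2b2 passed the test of the difference between E3.75 and E2.5 (-1.34, adjusted p = 0.0484), with null libraries above wild type at E2.5 and below at E3.75. In Eif3f all null libraries lay above wild type at E2.5, with 784, 794 and 851 CPM in Oct4 null libraries, against 773, 724 and 759 CPM in wild type libraries, and all below at E3.75 and E4.5. The difference in limma was -0.47 for E3.75 minus E2.5 (adjusted p = 0.115) and -0.48 for E4.5 minus E2.5 (adjusted p = 0.0874), and neither passed. Without Oct4 null library 1 of E4.5 the second passed (adjusted p = 0.0257), and that library was the shallowest and the highest in maternal markers. Sars2, the mitochondrial serine enzyme, was singled out for the same change of order, with 46.3, 35.4 and 49.5 CPM in Oct4 null libraries, against 13.1, 34.6 and 34 CPM in wild type libraries at E2.5 and 19.2, 21.3 and 19.4 CPM in Oct4 null libraries, against 25.8, 29.1 and 32.2 CPM in wild type libraries at E4.5. Its difference of -1.28 for E4.5 minus E2.5 did not pass (limma, adjusted p = 0.145).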

How the results depend on the processing

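No passing member reversed direction under any alternative. At E3.75, 11 members passed, and 9 to 12 did with pseudocounts of 0.1 or 5, the CPM minimum, TMM or DESeq2 size factors and edgeR's test, where 7.49% to 8.6% of all genes passed. The count was 6 with DESeq2, where 67 of 87 members had an adjusted p (10.5% of genes), 7 with thinned reads (5.28%), 4 in the fit over all 18 libraries (3.92%), 2 without the library of each group closest to a mix (2.33%) and 3 to 11 without single libraries (3.14% to 9.81%). At E2.5 the count of 0 became 3 with DESeq2, 1 in the fit over all 18 libraries (2.56% of genes) and 0 to 9 without single libraries. At E4.5 it became 1 in that fit and 0 to 1 without single libraries. For E3.75 minus E2.5 the count of 1 became 0 with a pseudocount of 0.1 and without the library closest to a mix, and was 0 to 2 without single libraries. For E4.5 minus E3.75 the count of 0 became 1 with TMM or DESeq2 size factors and 0 to 1 without single libraries, and for E4.5 minus E2.5 it was 0 to 1. The cause of these changes was not tested. Correlations of deviations between same-numbered null and wild type libraries were -0.031 to 0.121 at E2.5 and E3.75. Between differently numbered libraries they were -0.095 to 0.087. These few values cannot decide whether replicate numbers pair the samples. With the replicate block 8 members passed at E3.75 and 0 at E2.5. At E4.5 no block could be fitted because the wild type columns carry no number. By median, null libraries were deeper at each stage. Even so, Oct4 null library 1 of E4.5 was the shallowest of all. At E3.75 null library 1 (865017 reads) was shallower than wild type library 2 (1177830 reads). Low members such as Wars2 rest on few reads in the shallower libraries.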
